A study of Homo sapiens with 5 samples.

Results

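Start sites of nascent transcription were examined at 10 genes of antioxidant defence in HUDEP-2, a human line of erythroid progenitors kept in culture by immortalisation. The genes were the 6 peroxiredoxins (PRDX1 to PRDX6), catalase (CAT), the glutathione peroxidases GPX1 and GPX4 and the superoxide dismutase SOD1. They were taken by name, and every called start site inside them or within 20 kb of them was collected. This gave 64 of the 28283 calls in the series, around 10 of 19974 protein-coding genes. The assay was PRO-seq (precision run-on sequencing), which reads the RNA that engaged polymerases lengthen with biotin-labelled CTP and UTP in a run-on reaction. The study had 2 unedited, wild-type libraries and 3 sg1617-edited libraries with changes in the BCL11A enhancer: a 1 bp insertion, a 13 bp deletion or a 15 bp deletion. Each edited library came from a single-cell clone. The 2 deposited lists of calls, 1 per strand, name a single HUDEP-2 alignment and have no column per library, so edited and unedited cells could not be compared. The name of that alignment matches no sample title. It is therefore unknown whether the calls describe 1 unedited library, an edited clone or several libraries together.

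Red cells carry oxygen and haem iron and face a steady load of superoxide and hydrogen peroxide. Superoxide dismutases turn superoxide into hydrogen peroxide, which catalase, the peroxiredoxins and the glutathione peroxidases then remove. Peroxiredoxins are restored mostly by thioredoxin, glutathione peroxidases by glutathione, and both cycles draw on NADPH. PRDX2, catalase, GPX1 and SOD1 are abundant proteins of the mature red cell.

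A call is a single base on 1 strand at which the program TSScall placed a start site. The deposited score was 0 for all calls, so the reads behind a call, the depth of the libraries and the level of transcription are unknown. In a bulk preparation, fewer cells using a start and less transcription in each cell cannot be told apart, and a gene without a call is not shown to be silent. There is 1 version of the lists, without replicates, so no difference was tested and every share below is a description. The erythroid identity of the cells was visible in the calls: 12 of 12 erythroid markers, among them HBB, GATA1, ALAS2 and SLC4A1, had a call at their start. Of the lymphoid, megakaryocyte and hepatocyte markers 0 of 7, 0 of 6 and 0 of 4 did, and of the myeloid markers 1 of 7, which was CEBPA. A gene counted as called when a call on its own strand lay within 500 bp of its annotated start.

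The promoters of 7 of the 10 genes could be read from the RefSeq promoter table (build GRCh38.p14), and they are printed here because the base at which a start was called can be seen in them. Each runs 5′ to 3′ on the strand of its gene. Capitals mark the base of a call and the next base in the direction of that transcript. A window of PRDX4, GPX1 or GPX4 that reaches 250 bases upstream also holds the opposite-strand call, whose capitals are the complement of its own bases. For GPX4 the upstream sequence and the 30 bases around its call are given as separate runs.
PRDX2, chr19:12801780-12801900, reverse strand: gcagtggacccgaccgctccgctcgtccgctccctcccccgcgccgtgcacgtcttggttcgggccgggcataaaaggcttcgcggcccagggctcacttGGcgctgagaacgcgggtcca
PRDX3, chr10:119178792-119178912, reverse strand: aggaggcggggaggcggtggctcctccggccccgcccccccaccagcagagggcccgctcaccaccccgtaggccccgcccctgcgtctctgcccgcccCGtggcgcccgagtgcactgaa
PRDX4, chrX:23667243-23667513, forward strand: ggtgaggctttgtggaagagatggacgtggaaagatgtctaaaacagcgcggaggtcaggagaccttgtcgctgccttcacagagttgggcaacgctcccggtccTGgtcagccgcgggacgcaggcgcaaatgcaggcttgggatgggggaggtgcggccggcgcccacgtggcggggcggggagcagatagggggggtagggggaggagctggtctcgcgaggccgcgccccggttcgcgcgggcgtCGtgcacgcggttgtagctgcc
PRDX5, chr11:64318021-64318151, forward strand: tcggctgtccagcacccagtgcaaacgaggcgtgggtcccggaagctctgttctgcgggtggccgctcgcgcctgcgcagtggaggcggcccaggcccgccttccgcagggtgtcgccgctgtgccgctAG
CAT, chr11:34438834-34438954, forward strand: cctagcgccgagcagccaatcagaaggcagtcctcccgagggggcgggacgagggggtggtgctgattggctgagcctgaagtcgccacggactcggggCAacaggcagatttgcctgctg
GPX1, chr3:49358333-49358603, reverse strand: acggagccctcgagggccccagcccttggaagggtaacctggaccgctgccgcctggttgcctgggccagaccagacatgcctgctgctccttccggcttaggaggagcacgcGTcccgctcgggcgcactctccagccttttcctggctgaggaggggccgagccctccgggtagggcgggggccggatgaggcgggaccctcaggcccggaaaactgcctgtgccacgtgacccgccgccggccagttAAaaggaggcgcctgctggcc
GPX4, chr19:1103744-1103993, forward strand: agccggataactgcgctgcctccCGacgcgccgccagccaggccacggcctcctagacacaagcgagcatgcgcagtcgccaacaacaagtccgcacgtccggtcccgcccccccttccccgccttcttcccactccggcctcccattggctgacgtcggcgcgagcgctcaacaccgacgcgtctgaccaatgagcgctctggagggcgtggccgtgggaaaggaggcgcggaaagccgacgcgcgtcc
GPX4, chr19:1104049-1104078, forward strand: cctcggccgcctttGCcgcctactgaagcc
In PRDX3, PRDX4 and CAT the called base was a C followed by a purine, and in PRDX2, PRDX5, GPX1 and GPX4 it was itself a purine with a T before it. RNA polymerase II starts most often on a purine that follows a pyrimidine. Over 4114 forward calls in the promoter windows, that pair ended on the called base in 32.8% and on the next base downstream in 43.3%. For 3922 reverse calls the shares were 31.2% and 44.9%, against 21.7% of all neighbouring bases in the windows. The pair CA ended on the called base in 1.65% of the forward calls and on the next base in 33.1%. Positions and offsets below are those of the call. Whether the lists place many calls 1 base upstream of the initiating base was not settled, so offsets are uncertain by 1 base. Counted from the next base, PRDX3, PRDX4 and CAT would lie at 0 bp and PRDX2 and GPX1 at 1 bp.

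Of the 10 genes, 9 were called at their start, against 43.9% of 15812 protein-coding genes whose strand was known. The exception was PRDX1. In 7 of the 9 the call lay within 3 bp of the annotated base, as in 37.9% of the 6939 called genes. The remaining pair, PRDX5 and GPX4, were called farther downstream, at 29 and 69 bp. The median offset was 0 bp over the 9 genes and 3 bp over all called genes, with quartiles of -1 and 27 bp. All 9 were also called with a window of 100 bp. Offsets of -1 bp were the most frequent in the lists, with 17.6% of called genes, followed by 0 bp with 10.5%.

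**Figure D1:**
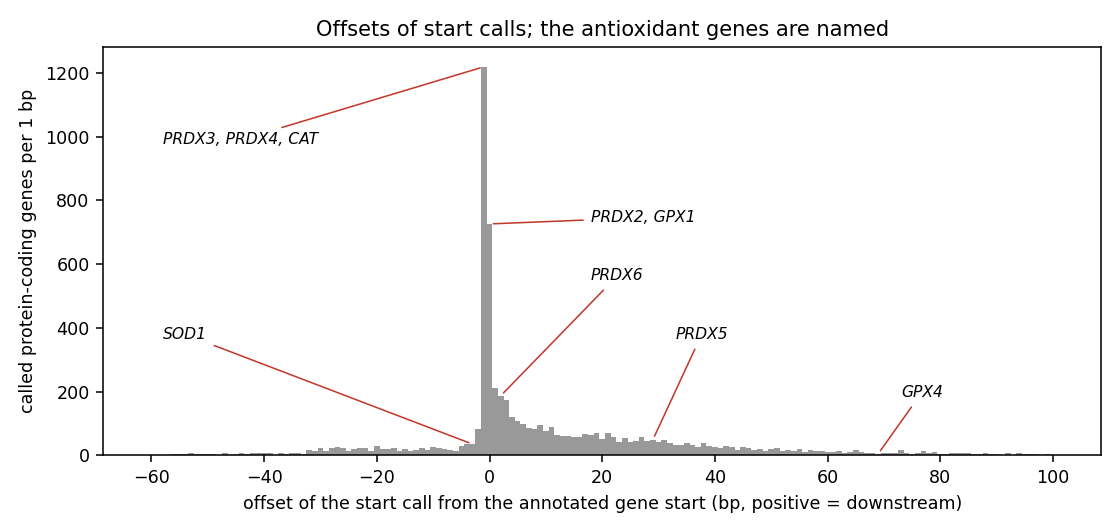
The plot shows the offset of the start call from the annotated gene start (bp, positive downstream) for called protein-coding genes with a known strand, as genes per 1 bp. The 9 called antioxidant genes are named at their offsets, with 7 of them within 3 bp of the annotated start and PRDX5 and GPX4 at 29 and 69 bp.

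PRDX1 and PRDX2 are cytosolic peroxiredoxins. PRDX1 (gene ID 5052) lies on chromosome 1 from 45511051 to 45522890 and is transcribed on the reverse strand. Its only internal call was at 45521885, on its own strand and 1005 bp downstream of the annotated start. No call of the other strand lay within 1000 bp upstream of it. This call fell just outside the widest window tried, 1000 bp, so PRDX1 was called in none of the windows. The promoter table used here holds no PRDX1 entry, so whether an annotated inner transcript start lies at this call was not tested. A further reverse call lay at 45509716, 1335 bp past the end of PRDX1, within MMACHC. MMACHC, a cobalamin metabolism gene, runs on the forward strand, overlaps the end of PRDX1 and was called at 15 bp.

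PRDX2 (gene ID 7001), a main peroxide scavenger of the red cell, lies on chromosome 19 from 12796823 to 12801800 on the reverse strand. It was called at the annotated base itself, 12801800. Its sequence above holds ATAAAA, which resembles a TATA box, between -30 and -25 bp. These letters were searched for after the sequence had been seen, and they occur on either strand in 6.92% of the promoters of called genes. PRDX2 was the only one of the 7 with a match. A forward call lay 390 bp upstream of the start call, 121 bp inside THSD8, a gene that faces PRDX2 head to head. Of the called genes with such a partner, 89.5% had it at this distance or less.

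PRDX2 also carried calls beyond its start. Inside the gene, further reverse calls lay 3111 and 4865 bp from the start. Past its end the reverse calls continued at 301, 684 and 940 bp, with gaps of 413, 383 and 256 bp from the last internal call onward. An own-strand call within 2000 bp past the end was present in 1 of the 9 called genes, PRDX2, against 8.45% of called genes, and 3 or more such calls in 0.980% of them. The smallest gap between neighbouring calls of a strand anywhere in the lists was 206 bp. Whether the caller enforces a minimum distance is not given in the sources used here. Forward calls lay inside PRDX2 at 1338 and 1779 bp, antisense to the gene, and neither had a reverse call within 1000 bp upstream.

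In all, 27 calls fell in PRDX2 or within 20 kb of it, 13 on its strand and 14 on the other. Of the 15812 genes, 28 (0.177%), PRDX2 included, had at least as many calls inside them or within 20 kb, and the median was 2. PRDX2 thus held 42.2% of the 64 calls around the 10 genes, and 37 remained without it. Of the 27, 14 lay inside the neighbours HOOK2 or JUNB, 5 inside PRDX2 and 6 in no annotated gene. JUNB, an immediate early transcription factor gene, was called at its annotated base, 10314 bp downstream of the PRDX2 start, and again at 290 bp. HOOK2, a gene for a microtubule linker protein, was called at -234 bp. Between PRDX2 and JUNB a divergent pair lay at 12793971 and 12794181, 210 bp apart and outside any annotated gene. Upstream, RNASEH2A, the catalytic subunit of ribonuclease H2, was called at 23 bp with a partner 128 bp away.

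**Figure D2:**
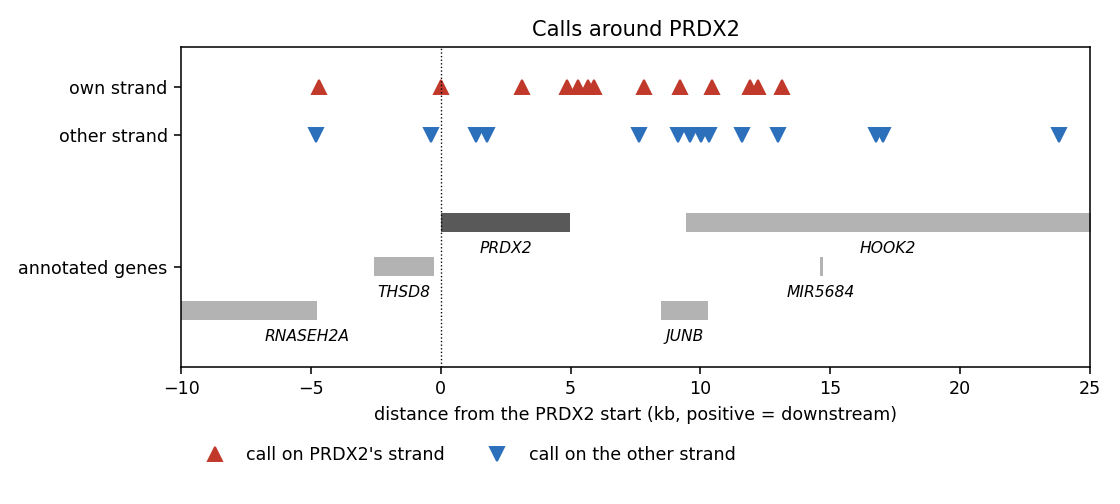
Calls around PRDX2 are plotted by their distance from the PRDX2 start (kb, positive downstream), with calls on the strand of PRDX2 as red upward triangles, calls on the other strand as blue downward triangles and annotated genes as grey bars. Of the 27 calls, 14 lie inside HOOK2 or JUNB, and a run of 3 own-strand calls follows the end of PRDX2.

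PRDX3 and PRDX4 serve the mitochondria and the endoplasmic reticulum. PRDX3 (gene ID 10935, chromosome 10, 119167720 to 119178812, reverse strand) was called at 119178813, an offset of -1 bp. It was the only called gene of the 9 without a call of the other strand within 1000 bp upstream, and no call of either strand lay farther upstream within 20 kb. Downstream, SFXN4, a mitochondrial sideroflexin, was called 3 bp downstream of an annotated inner transcript start, with its own partner 86 bp away. PRDX4 (gene ID 10549, chromosome X, 23667493 to 23686397, forward strand) was called at 23667492, also at -1 bp, with a reverse partner 143 bp away. These were the only calls in its 58.9 kb span. The next call on the forward strand was 115681 bp away and the next on the reverse strand 240355 bp away.

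PRDX5 and PRDX6 shared their upstream regions with other annotated transcripts. PRDX5 (gene ID 25824, chromosome 11, 64318121 to 64321811, forward strand), found in mitochondria, peroxisomes and cytosol, had forward calls at 29 and at -462 bp, 491 bp apart. The nearest reverse call, at 64317565, lay 6 bp upstream of an annotated start of TRMT112, a methyltransferase cofactor gene on the reverse strand whose annotated span covers both PRDX5 calls. That reverse call was 94 bp from the PRDX5 call at -462 bp and 585 bp from the call at 29 bp. Of the called genes with a partner, 98.0% had it within 585 bp. The ESRRA gene, encoding an estrogen-related nuclear receptor, was called at its own annotated base, at -12597 bp from PRDX5. PRDX6 (gene ID 9588, chromosome 1, 173477335 to 173488815, forward strand), a peroxiredoxin that uses glutathione and also has phospholipase activity, was called at 2 bp. Its partner at 173477141, 196 bp away, lay 14 bp inside the right-hand end of the non-coding gene LOC100506023, and these were its only calls.

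Among the other enzymes, CAT (gene ID 847, chromosome 11, 34438934 to 34472060, forward strand) was called at -1 bp. A reverse call lay 349 bp away, and no other call fell in its 73.1 kb span. The next calls on the forward and reverse strands were 178421 and 178325 bp away, farther than the next forward call of PRDX4. GPX1 (gene ID 2876, chromosome 3, 49357176 to 49358353, reverse strand), the cytosolic selenoenzyme that reduces hydrogen peroxide, was called at its annotated base. Its forward partner at 136 bp was the closest of the 8 partners. The upstream neighbour RHOA, a small GTPase gene, runs on the same strand as GPX1, and no forward gene is annotated within 20 kb upstream. The other calls were downstream: USP4, a ubiquitin protease gene, was called at 48 bp with a partner 218 bp away, and a further pair beside it was 124 bp apart.

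GPX4 (gene ID 2879, chromosome 19, 1103994 to 1106779, forward strand), which reduces lipid hydroperoxides in membranes, was called 69 bp downstream of its outermost start. RefSeq places 3 transcript starts in this gene, at 1103994, 1104057 and 1104650, and the call at 1104063 lay 6 bp from the middle one. A reverse call lay 295 bp away from it. The only other calls within 20 kb were at POLR2E, the gene of a subunit shared by the RNA polymerases, called at 39 bp with a partner 244 bp away. SOD1 (gene ID 6647, chromosome 21, 31659693 to 31668931, forward strand), the copper and zinc enzyme of the cytosol, was called at -3 bp with a reverse partner 168 bp away. A second reverse call lay 324 bp inside SOD1, 7 bp into SOD1-DT from its right-hand end, a divergent non-coding gene, whose annotated span overlaps the start of SOD1. The 2 reverse calls were 495 bp apart, 1 on either side of the SOD1 start, and a forward call lay inside SOD1-DT at -4767 bp.

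**Figure D3:**
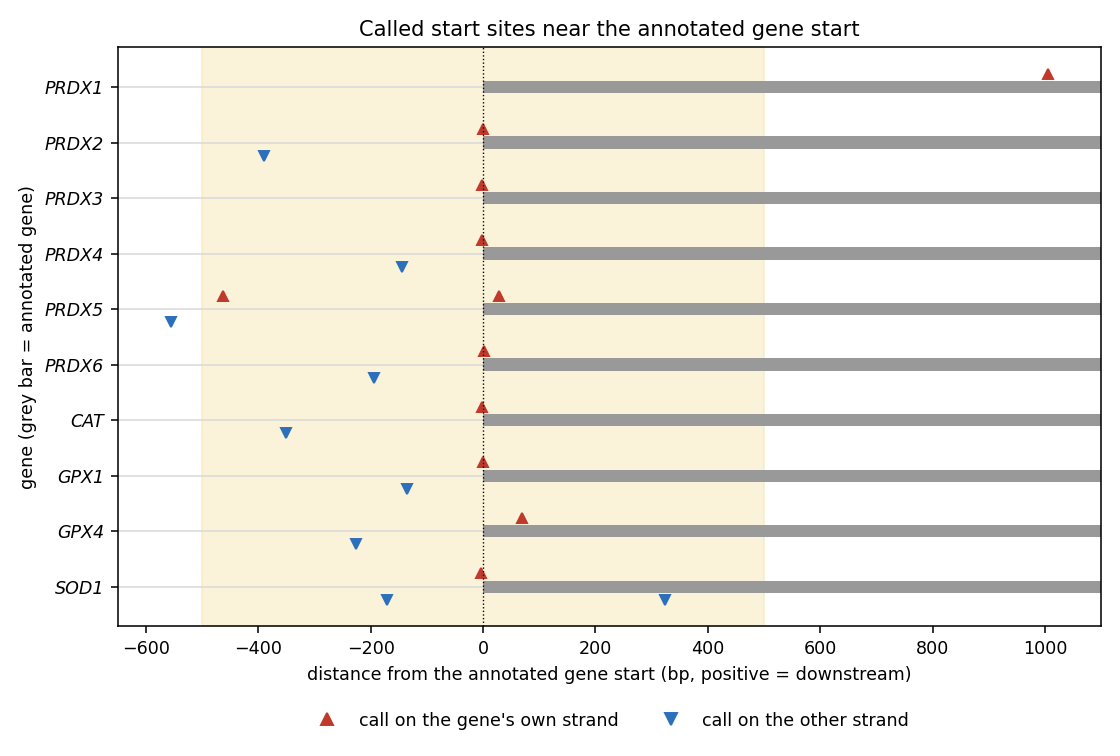
Calls near the annotated start are plotted for each gene by distance from that start (bp, positive downstream), with own-strand calls as red upward triangles, other-strand calls as blue downward triangles, the gene as a grey bar and the 500 bp window shaded. In 9 genes an own-strand call lies in the window, while that of PRDX1 lies 1005 bp downstream, and PRDX3 alone among the 9 has no call of the other strand.

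Of the 9 start calls, 8 had a divergent partner within 1000 bp, against 67.2% of called genes. Their distances ran from 136 bp at GPX1 to 585 bp at PRDX5, with a median of 245.5 bp. Over all called genes the median was 178 bp, with quartiles of 118 and 277 bp. Distances above the upper quartile were found at PRDX2, PRDX5, CAT and GPX4. Own-strand calls numbered 2 or more in 2 of the 9 genes, PRDX2 and PRDX5, against 27.0% of called genes, and PRDX5 had 1 when calls within 500 bp were merged. Calls of the other strand lay inside 2 of the 9, PRDX2 and SOD1, against 30.9%. These last counts lie near the shares of all called genes.

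Over the 64 calls, 35 were on the strand of the antioxidant gene and 29 on the other. Inside the genes lay 11 calls, 8 on their own strand and 3 on the other. Within 500 bp of an annotated start of some gene lay 26, and 45 had a call of the other strand within 1000 bp upstream. The count of 26 took in inner transcript starts, and either end of genes whose strand was unknown. Apart from PRDX2, with 27, the genes had between 2 and 9 calls in their span. The median over the 10 was 4, against 3 over called genes.

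**Figure D4:**
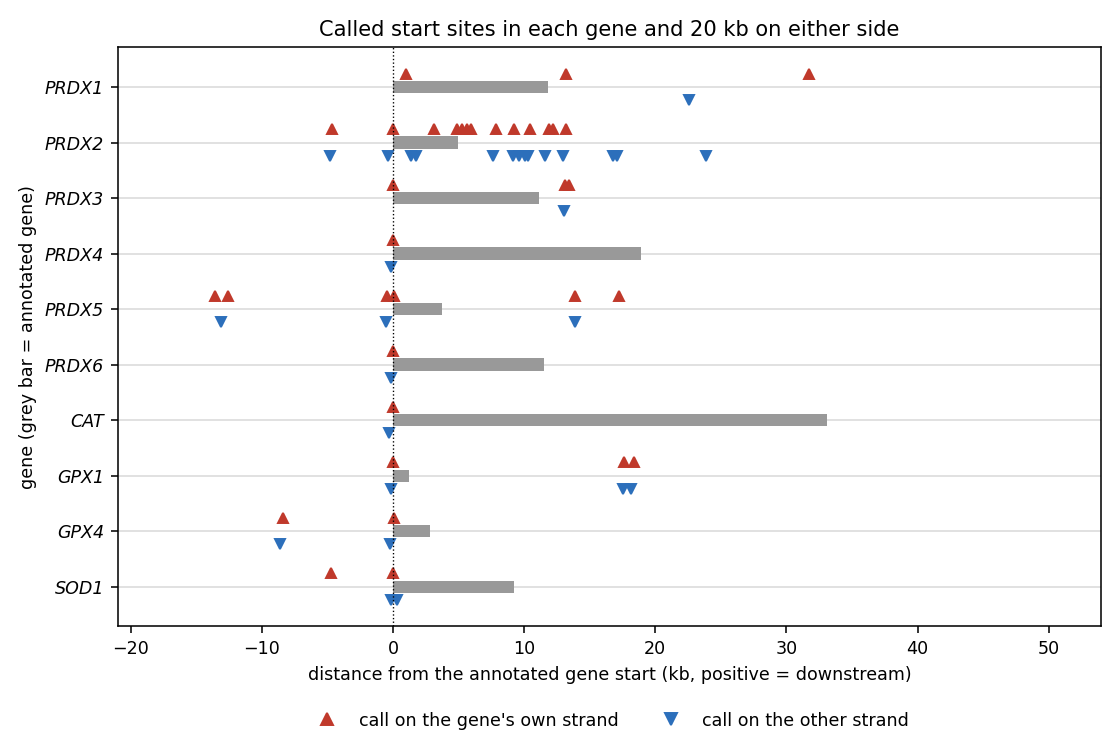
All 64 calls are plotted by gene and distance from the annotated gene start (kb, positive downstream), with own-strand calls as red upward triangles, other-strand calls as blue downward triangles and each gene as a grey bar. PRDX2 has 27 calls, most of them downstream of its start, whereas PRDX4, PRDX6 and CAT have 2 each.

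The 7 promoter sequences were searched on both strands of the 300-base window for short motifs. GGGCGG, the core of a GC box bound by SP and KLF factors, was present in 7 of 7 and in 74.1% of the promoters of called genes. CCNCNCCC, a CACCC-like pattern that can overlap a GC box, was in 6 of 7 (73.9% of called promoters) and CACCC in 3 of 7 (62.0%). CCAAT was in CAT and GPX4 (39.6%), with 5 matches in CAT at -217 to -31 bp and 3 in GPX4. CCGGAA, the ETS core, was in PRDX5 and GPX1 (36.7%), and CGCANGCG, an NRF1 core, in PRDX2, PRDX4 and PRDX5 (23.3%). The antioxidant response element is the site through which NRF2 acts. Its looser core TGANNNNGC was found in PRDX2, PRDX3 and CAT (44.2% of called promoters), and TGACNNNGC in 0 of 7 (15.9%). AGATAA and TGATAA, the forms of the GATA site that end in AA, were in 0 of 7 (4.28% and 2.91%), as was TATAAA (5.02%). The forms AGATAG and TGATAG were not searched for, so the promoters are not shown to lack a GATA site. The PRDX4 sequence printed above holds AGATAG. Each match or lack of one concerns only these letters in this window.

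GC content of the windows ran from 61.3% in PRDX3 to 73.7% in PRDX2, with a median of 65.3% over called promoters. PRDX2 held 46 CG dinucleotides and GPX4 39, against a median of 27, whereas PRDX3 held 18 and CAT 20.

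The enzymes that work beside these genes were read from 10 further lists of 81 genes, 42 of which were called at their start (51.9%, against 43.9% of protein-coding genes with a known strand). Without the list of oxidant-producing enzymes the share was 58.0%. No list was tested against other genes or another list. GPX1 and GPX4 were the called glutathione peroxidases: GPX2, GPX3, GPX5, GPX6, GPX7 and GPX8 held 0 calls on either strand, 500 bp of flank included. Among superoxide dismutases, SOD2, the mitochondrial enzyme, was called at -37 bp and held 11 calls, and SOD3, the extracellular enzyme, held 0. CCS, the copper chaperone of SOD1, was called at -1 bp.

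The thioredoxin and sulfiredoxin list had 8 of 10 called, against 43.9% of all genes. The 8 include TXNIP, an inhibitor of thioredoxin, called at 0 bp. TXN, thioredoxin itself, was called at -55 bp, TXN2, its mitochondrial form, at 8 bp, and SRXN1, the sulfiredoxin that repairs overoxidised peroxiredoxins, at -1 bp. TXNRD1, the cytosolic thioredoxin reductase, and SESN3 were not called at the start, with 4 and 2 calls in or near the gene. Of the glutathione list 8 of 10 were called, against the same 43.9%, among them GCLC and GCLM, the subunits of the first enzyme of glutathione synthesis, each at -1 bp, and SLC7A11, the cystine carrier, at 0 bp. GSR, glutathione reductase, was called at 34 bp, and GLRX2 and GGT1 were not called. The strands of TXN2, SLC7A11 and GSR were not in the table used, so their offsets are from the gene end that had a call.

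The NADPH list had 6 of 10 called, near the 43.9% of all genes. PGD, TKT, TALDO1, PGLS, IDH1 and IDH2 were, at offsets from -15 to 4 bp. PGD, TKT, TALDO1 and PGLS are enzymes of the pentose phosphate pathway, and IDH1 and IDH2 are isocitrate dehydrogenases. All 6 genes of selenoprotein synthesis, which supply GPX1 and GPX4, were called, from -1 bp at SEPHS2 to 188 bp at SEPSECS. The strand of SEPSECS was not in the table used, so its offset is from the gene end that had a call. Of the methionine sulfoxide reductases 3 of 4 were, all but MSRB3. The share of all genes, 43.9%, stands beside both of these short lists.

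Of the NRF2 and KEAP1 list 5 of 10 were called, near the 43.9% of all genes. NFE2L2, which encodes NRF2, was called at 4 bp, KEAP1, its inhibitor, at 27 bp, CUL3 at -36 bp, NFE2L1 at 0 bp and BACH1, a haem-sensitive repressor, at 3 bp. BACH2, MAFF, MAFG, MAFK and SQSTM1 were not. A further list of 10 enzymes, most of them known as NRF2 targets, had 2 called, against 43.9% of all genes. They were BLVRB and HMOX2, the constitutive haem oxygenase, which is not counted as such a target, each at -1 bp. HMOX1, the inducible haem oxygenase, held 0 calls and NQO1 1. Of 12 enzymes that make oxidants 2 were called, against 43.9% of all genes, each with a single call at 1 end of a gene whose strand was not in the table used, and the other 10 held 0 calls.

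**Figure D5:**
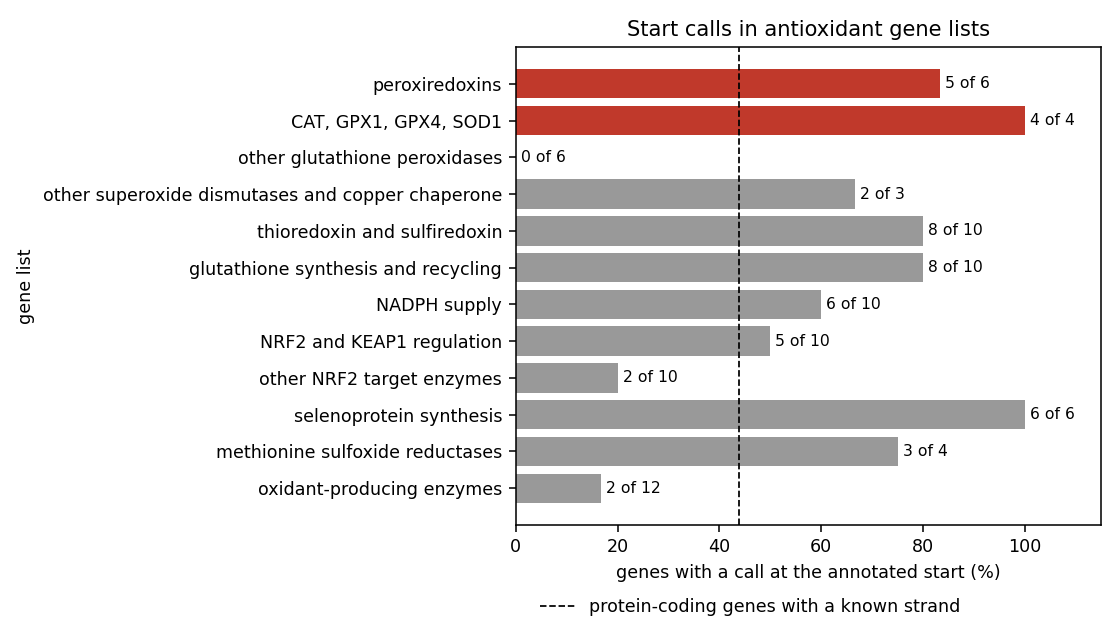
Bars give the share of genes in each list with a call at the annotated start (%), with the number called of the number in the list beside each bar, and the dashed line marks 43.9% for protein-coding genes with a known strand. The peroxiredoxins have 5 of 6 called and the other glutathione peroxidases 0 of 6.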

How the data were processed

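PRO-seq was done in 5 HUDEP-2 libraries. The deposited files are 2 BED lists of start sites called with TSScall on 1 sorted, de-duplicated alignment, per the file headers. The deposited score is 0 throughout, for 28283 calls. Per the submitters' processing notes the build was hg38, with SAMtools 1.17, deepTools 3.5.4, Picard and BWA 0.7.16a among the tools. For TSScall itself, neither version nor read minimum is stated in these sources. Each call spans 1 base, and the BED end served as its 1-based position.

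Gene spans came from RefSeq GRCh38.p14, whose main chromosomes share their coordinates with hg38. Strands, inner starts and sequences came from its promoter table, which covers 250 bases before to 50 after a start. It covered 7 of the 10 genes and none on chromosome 8. The strands of PRDX1, PRDX6 and SOD1 were taken from general knowledge, and other genes without a strand counted as called from either end. Shares over all genes refer to chromosomes 1 to 22 and X. Windows were 500 bp for starts, 1000 bp for partners and 20 kb for flanks.

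The 10 genes and the lists were chosen with earlier results of these data known. Named genes were the 10, genes called within their flanks, and members of the lists, some of which are not reported here. No test was run, since the lists have no replicates. Functions were checked on simulated calls. Scripts ran under Python 3.11.15 with pandas 2.3.3, numpy 2.4.6, matplotlib 3.10.9 and scipy 1.17.1.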

Additional observations from a re-analysis of the deposited data

How the results depend on the processing

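The number of the 10 genes called at their start stayed at 9 with windows of 100 and 1000 bp, at either end and with any transcript start of the promoter table, and was 10 with any own-strand call in the gene. The share of all protein-coding genes moved from 43.9% to 39.1% with 100 bp, 46.3% with 1000 bp, 51.6% with any own-strand call, 48.8% with any transcript start and 42.2% with either end of all genes. Divergent partners were found for 7 genes within 500 bp and 8 within 2000 bp, and the share over called genes was 64.3% and 67.7%. With calls within 500 bp merged, 1 of the called antioxidant genes in place of 2, and 17.7% of called genes in place of 27.0%, kept 2 or more own-strand calls. The 64 calls became 49 with flanks of 10 kb, 85 with 50 kb and 37 without PRDX2. Counted 1 base downstream of the call, the median offset of all called genes was 4 bp, and that of the antioxidant genes 1 bp. The pathway count of 42 was 39 with 100 bp and 47 with 1000 bp. Any transcript start, either end of all genes, the shift by 1 base, leaving out PRDX2 and the windows of the pathway lists were chosen after seeing the data. No paired analysis was possible because the lists have no column per library, and for the same reason no library could be left out. Read depth behind the calls is unknown, so a gene without a call may lie below a read minimum that is not given.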
